A study of Mus musculus with 8 samples.

Results

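Wnt signalling genes were read across RNA-seq libraries of mouse induced cardiomyocytes, which are fibroblasts pushed towards a heart muscle identity by forced expression of transcription factors. The set holds the Wnt ligands, the Frizzled receptors, the co-receptors Lrp5, Lrp6, Ror1 and Ror2, and the secreted antagonists of the Sfrp and Dkk families with Frzb and Wif1. R-spondins and the pathway's nuclear side (Axin2, Lef1 and Tcf7) complete it. Membership followed the gene symbol alone, which gave 49 of the 53921 named rows of the count table. The set itself was chosen with earlier results of these data known. All cells were treated with MGT, the mix of Mef2c, Gata4 and Tbx5 in this field, and were collected on day 5 with a lentiviral hairpin. Of the 4 RNA-seq libraries, 2 carried the hairpin named shNT, taken as the control, and 2 carried shGrhl3, directed at the Grainyhead-like transcription factor Grhl3. The cells are labelled "Induced cardiomyocytes(Neo)", and the labels say neither what the added word means nor whether replicate libraries are separate cultures. The p-values thus measure the spread between the sequenced libraries, and that spread may be technical.

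Wnt proteins are secreted, lipid-modified ligands that bind Frizzled receptors on nearby cells. With Lrp5 or Lrp6 as co-receptor they stabilise beta-catenin, which then acts with the Tcf and Lef factors on genes such as Axin2. With Ror1 or Ror2 many of them act without beta-catenin, on cell polarity and movement. Sfrp proteins, Frzb and Wif1 bind the ligands, Dkk proteins bind the co-receptors, and R-spondins raise the amount of receptor at the cell surface. In the heart, Wnt signalling is known both for its stage-dependent role in cardiomyocyte formation and for its activity in fibroblasts after injury.

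The ligands Wnt5b and Wnt7a had the highest fold changes among the Wnt ligands that could be tested, and RefSeq (GRCm38.p6) holds promoter sequence for both. They are shown so that the regions in front of the genes that rose can be read. Each runs from 250 bases before to 50 bases after an annotated start, on the minus strand of chromosome 6, and is written 5′ to 3′ as the gene is read. Sequence was given for 3 Wnt5b starts, at chr6:119544298-119544597 (the most upstream of these), chr6:119467162-119467461 and chr6:119449337-119449636 (the most downstream). The RefSeq span of Wnt5b reaches 119544824, upstream of all 3 regions, so a start at that end is not shown. For Wnt7a 1 start was given, at chr6:91411304-91411603. Gene-level counts do not tell which Wnt5b start was used. Capitals mark a match to CTTTGAT, letters that TCF/LEF factors are known to bind.
Wnt5b upstream start: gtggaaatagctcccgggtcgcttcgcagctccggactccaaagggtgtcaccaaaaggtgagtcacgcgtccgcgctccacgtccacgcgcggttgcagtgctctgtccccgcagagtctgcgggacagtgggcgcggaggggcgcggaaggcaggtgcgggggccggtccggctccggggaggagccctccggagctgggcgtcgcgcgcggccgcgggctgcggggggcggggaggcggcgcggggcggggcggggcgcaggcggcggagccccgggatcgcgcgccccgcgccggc
Wnt5b middle start: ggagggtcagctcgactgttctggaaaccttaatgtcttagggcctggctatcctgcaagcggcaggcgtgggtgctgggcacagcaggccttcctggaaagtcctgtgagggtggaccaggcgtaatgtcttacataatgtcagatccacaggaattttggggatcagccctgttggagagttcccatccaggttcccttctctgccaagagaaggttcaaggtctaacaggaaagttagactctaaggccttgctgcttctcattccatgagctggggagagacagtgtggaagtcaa
Wnt5b downstream start: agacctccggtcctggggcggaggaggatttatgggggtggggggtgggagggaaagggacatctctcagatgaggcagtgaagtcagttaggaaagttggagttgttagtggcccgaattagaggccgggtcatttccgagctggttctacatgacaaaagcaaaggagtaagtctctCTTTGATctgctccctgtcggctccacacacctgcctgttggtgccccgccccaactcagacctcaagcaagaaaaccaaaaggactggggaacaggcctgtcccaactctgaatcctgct
Wnt7a start: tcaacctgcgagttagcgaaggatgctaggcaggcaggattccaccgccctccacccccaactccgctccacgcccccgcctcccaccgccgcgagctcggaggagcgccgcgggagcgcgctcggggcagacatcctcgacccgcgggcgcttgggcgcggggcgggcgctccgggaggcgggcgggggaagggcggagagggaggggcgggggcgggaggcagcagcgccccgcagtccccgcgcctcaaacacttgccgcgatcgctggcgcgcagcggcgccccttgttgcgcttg
The upstream Wnt5b region and the Wnt7a region are rich in G and C (78.0% and 76.0%), whereas the middle and downstream Wnt5b regions hold 53.0% and 55.0%. The median over all promoters in the RefSeq table was 52.7%.

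Exact matches to 4 letter strings were counted on both strands in the promoters of the set. RefSeq promoters were found for 33 of the 49 members, 40 promoters in all, and for 21 of the members that could be tested. CTTTGAT occurred in 2 of the 40 promoters (5.00%), the downstream one of Wnt5b at position -71 from the start and 1 of Wnt11, against 3.73% of the 32851 promoters in the table. CTTTGAA, the other TCF/LEF string, occurred in 1 (Dkk1), against 5.14% of all promoters. For the Grainyhead-like family, AACCGGTT occurred in 0 of the 40, against 0.146% of all promoters. The looser string AACNGGTT, which includes it, occurred in 1, in front of Wnt1, against 2.09%. Matches are a description of letters in these windows.

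The libraries held between 16102839 and 19822541 counts in named rows. Levels are given as CPM, counts scaled to a common library size corrected by TMM, and a single count was worth between 0.0499 and 0.0630 CPM. Grhl3 itself was counted 31 and 14 times in the control libraries against 11 and 19 times, so its mRNA did not separate the groups. The columns taken as shGrhl3 are named shGrhl1 and shGrhl2, and the digit was read as a replicate number. The summed cardiomyocyte markers summed to 4791 ± 17.9 CPM under shNT against 5808 ± 123 CPM under shGrhl3 (SD, n = 2), with 4 of 10 higher and 1 lower. Fibroblast markers summed to 11155 ± 164 and 12431 ± 564 CPM, with 2 of 10 higher and 5 lower. The rise of that sum rested on the collagen gene Col1a1, since without it the other fibroblast markers summed to 6954 ± 223 and 6347 ± 24.6 CPM. Markers of other cells moved with the groups too. Of 10 leukocyte markers 9 fell and 1 rose, with a summed level of 667 and 917 CPM in shNT and 152 and 122 CPM in shGrhl3. Of 6 epicardial or mesothelial markers 2 rose and 0 fell, from 235 and 261 to 346 and 341 CPM, and of 6 smooth muscle or pericyte markers 2 rose and 1 fell, from 159 and 154 to 202 and 241 CPM. Endothelial markers summed to 60.1 and 54.5 CPM in shNT against 48.0 and 42.0 CPM in shGrhl3, with 1 of 7 lower and 0 higher. Epithelial markers summed to 3.45 and 2.90 CPM in shNT against 6.28 and 4.76 CPM, where 2 of 5 could be tested and the keratin gene Krt18 was higher. Schwann or neural crest markers summed to 2.93 and 3.27 CPM in shNT against 3.89 and 4.12 CPM in shGrhl3, with 0 of 2 tested passing by edgeR. No marker of any list was at 0 in all libraries, and the part of these cells in the results below was not tested. In bulk RNA, fewer cells of a type and less RNA per cell cannot be told apart. Ribosomal RNA genes took 0.573% and 2.00% of the shNT counts against 0.0960% and 0.156% of the shGrhl3 counts. The share was higher in both shNT libraries than in either shGrhl3 library, and highest in shNT replicate 2. It thus differs along with the hairpin and cannot be told apart from it.

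Of the 49 members, 32 had enough counts to be tested, and 15 of them passed an adjusted p of 0.05 (edgeR's quasi-likelihood test), 7 higher and 8 lower in shGrhl3 cells. These are 21.9% and 25.0% of the tested members, against 17.2% higher and 18.1% lower among all 15324 genes tested. In either direction the share was 46.9%, against a background of 35.3%. Calls of at least 2-fold were made for 4 of the 32 (12.5%), against 7.62% of all genes. The libraries of the groups did not overlap for 21 of the 32, or 65.6%, against 66.5% of all genes. The median log2 fold change of the tested members was -0.21, beside -0.01 over all genes. With 1 library left out that median of the members lay between -0.24 and -0.04, and without the filter on low counts it was -0.11. These shares describe the set, and whether it differs from other genes was not tested. Without shNT replicate 2, 5 members passed as lower in place of 8.

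**Figure D1:**
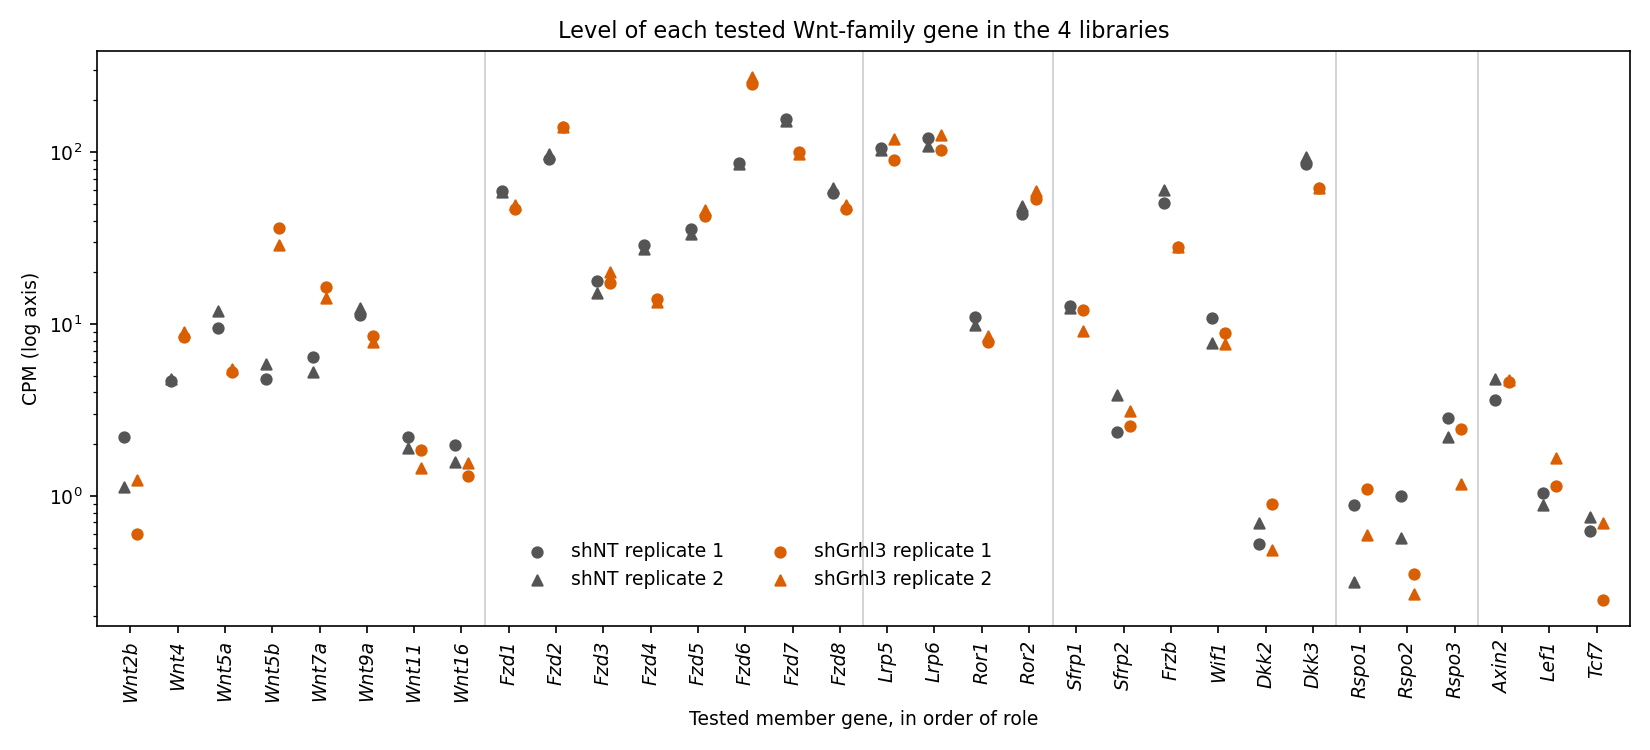
Level of each of the 32 tested members in every library, on a logarithmic CPM axis, with members in order of role and grey lines between roles. Grey marks are the 2 shNT libraries and orange marks the 2 shGrhl3 libraries; the marks of Wnt5b, Wnt7a and Fzd6 separate upwards in shGrhl3, and those of Wnt5a, Fzd4 and Frzb downwards.

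Among the ligands, Wnt5b rose most, Wnt7a and Wnt4 rose as well, and Wnt5a and Wnt9a fell. Wnt5b and Wnt5a are close paralogs that mostly signal without beta-catenin, and they moved in opposite directions. Wnt5b (chromosome 6, 119432531 to 119544824, mm10) was counted 91 and 93 times with shNT and 725 and 536 times with shGrhl3, or 4.76 and 5.86 against 36.2 and 28.7 CPM. Both shGrhl3 values were far above both shNT values. The rise was 6.16-fold, a log2 fold change of 2.62 (SE 0.17, 95% interval 2.27 to 2.97, adjusted p = 4.78e-11). Wnt5a (chromosome 14, 28504543 to 28527448) stood at 9.46 and 12.0 CPM in shNT and at 5.29 and 5.46 CPM in shGrhl3. Its libraries did not overlap either, and it fell by 0.99 on the log2 scale (SE 0.20, adjusted p = 0.000481). Leaving out 1 library at a time moved the Wnt5b log2 fold change between 2.45 and 2.80 and that of Wnt5a between -1.16 and -0.81, with both calls kept. How reads shared by paralogs were counted is unknown, and Fbxl14, which overlaps the Wnt5b span in RefSeq, did not pass.

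Wnt7a (chromosome 6, 91363981 to 91411353), known for its roles in limb patterning and muscle stem cells, was at 6.43 and 5.29 CPM in shNT and at 16.4 and 14.1 CPM in shGrhl3. Every shGrhl3 library was above every shNT library. The rise was 2.59-fold (log2 fold change 1.37, SE 0.18, adjusted p = 2.68e-06). Wnt4 (chromosome 4, 137277635 to 137299501), which is known from kidney and gonad development, was at 4.65 and 4.79 CPM in shNT and at 8.43 and 8.94 CPM in shGrhl3. Its groups were also apart, by 1.84-fold (log2 fold change 0.88, SE 0.21, adjusted p = 0.00209). Wnt9a (chromosome 11, 59306849 to 59333552) went the other way, from 11.2 and 12.4 CPM in shNT to 8.48 and 7.82 CPM in shGrhl3. That fall of 0.53 on the log2 scale passed narrowly (SE 0.18, adjusted p = 0.0209). The Wnt9a call was lost with DESeq2 (adjusted p = 0.0765) and without shNT replicate 2 or shGrhl3 replicate 2, within a range of 0.0182 to 0.135 over 14 alternatives.

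The other ligands were low or not detected. Wnt2b, Wnt11 and Wnt16 were tested and did not pass. They are among 8 tested members with little signal (the others being Dkk2, Rspo1, Rspo2, Lef1 and Tcf7), whose levels lay between 0.249 and 2.19 CPM and whose adjusted p ranged from 0.149 to 0.832 by edgeR. Wnt2b went from 2.19 and 1.13 CPM to 0.598 and 1.23 CPM, with overlapping libraries and a 95% interval of -1.93 to 0.10 for its log2 fold change. For Wnt11 the interval was -1.09 to 0.47 and for Wnt16 -1.17 to 0.49, so changes of about 2-fold downwards lie inside all 3. The remaining 11 ligands were too low to test. Wnt1, Wnt3a, Wnt8b and Wnt9b had 0 counts in every library, which allows a level of up to 0.150 to 0.189 CPM per library (3 counts, covering counting error only). Wnt3a is the ligand most used in the laboratory to activate beta-catenin signalling. Wnt2, Wnt3, Wnt6, Wnt7b, Wnt8a and Wnt10a had 1 to 10 counts over all libraries. Wnt10b had 0 and 4 counts in shNT and 8 and 5 in shGrhl3.

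The Frizzled receptors changed in both directions, also among paralogs. Among the 8 that could be tested, 3 rose (37.5%, against 17.2% of all genes), 4 fell (50%, against 18.1%) and only Fzd3 missed the threshold. The share called in either direction was 87.5%, against 35.3% of all genes, and 4 of these 7 calls held under all 14 alternatives. Fzd6 rose 3.06-fold while Fzd3, of the same subfamily, did not pass. In the subfamily of Fzd1, Fzd2 and Fzd7, Fzd2 rose while the other members fell. In the subfamily of Fzd5 and Fzd8, Fzd5 rose and Fzd8 fell, 2 calls that are both lost without shNT replicate 2. Differences between paralogs were not themselves tested. These receptors are similar in sequence, and the counting of reads that fit several of them was not given in the sources used here.

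Fzd6 (chromosome 15, 39006149 to 39038192), best known for hair and tissue polarity, was counted 1656 and 1349 times with shNT and 5022 and 5121 times with shGrhl3. Scaled, these were 86.5 and 84.9 CPM against 250.5 and 274 CPM, with the groups far apart and little spread within each. Its log2 fold change was 1.61 (SE 0.09, 95% interval 1.43 to 1.79, adjusted p = 2.70e-12), the lowest p of the set. Fzd3, a receptor of axon guidance, stood at 17.7 and 15.05 CPM in shNT and at 17.4 and 20.02 CPM in shGrhl3, with overlapping libraries (log2 fold change 0.18, 95% interval -0.11 to 0.48, adjusted p = 0.346). The interval of Fzd3 thus lies below that of Fzd6.

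Fzd2 (chromosome 11, 102604431 to 102608058) was at 91.0 and 97.2 CPM in shNT and at 141 and 139.8 CPM in shGrhl3. This was a rise of 1.49-fold with no overlap (log2 fold change 0.58, SE 0.09, adjusted p = 1.58e-05). Fzd7 (chromosome 1, 59482147 to 59486955), a receptor of early mesoderm and stem cells, was at 155 and 151 CPM in shNT and at 100.5 and 97.4 CPM in shGrhl3. It fell by 0.63 on the log2 scale (SE 0.09, adjusted p = 4.11e-06), again with the groups apart. Fzd1 fell by less, from 59.8 and 58.6 CPM to 47.0 and 49.2 CPM (log2 fold change -0.30, adjusted p = 0.0215). Its call was lost with DESeq2 (adjusted p = 0.0543) and without shNT replicate 1, shNT replicate 2 or shGrhl3 replicate 1, within 0.0182 to 0.138 over 14 alternatives.

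Fzd4 (chromosome 7, 89404366 to 89410110), the receptor that also takes the non-Wnt ligand norrin in retinal vessels, had the largest fall among the Frizzled genes. It was at 28.7 and 27.4 CPM in shNT and at 14.01 and 13.4 CPM in shGrhl3. Both shGrhl3 libraries were about equal and clearly below shNT (log2 fold change -1.03, SE 0.13, adjusted p = 1.39e-06). Tmem135, whose span overlaps Fzd4 and whose reads could not be told apart from it without the strand setting, fell by 0.36. Fzd5 went from 35.6 and 33.2 CPM to 42.2 and 45.8 CPM (log2 fold change 0.35, adjusted p = 0.0139), and Fzd8 from 58.2 and 62.1 CPM to 47.0 and 49.0 CPM (log2 fold change -0.33, adjusted p = 0.0136). Neither pair of groups overlapped. The Fzd5 call was lost without shNT replicate 2 or shGrhl3 replicate 2 (0.00786 to 0.127 over 14 alternatives) and the Fzd8 call without shNT replicate 2 (0.0116 to 0.144). Fzd9 and Fzd10 were below the filter, with 4 and 0 against 12 and 4 counts for Fzd9, and 2 and 6 against 16 and 9 counts for Fzd10.

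**Figure D2:**
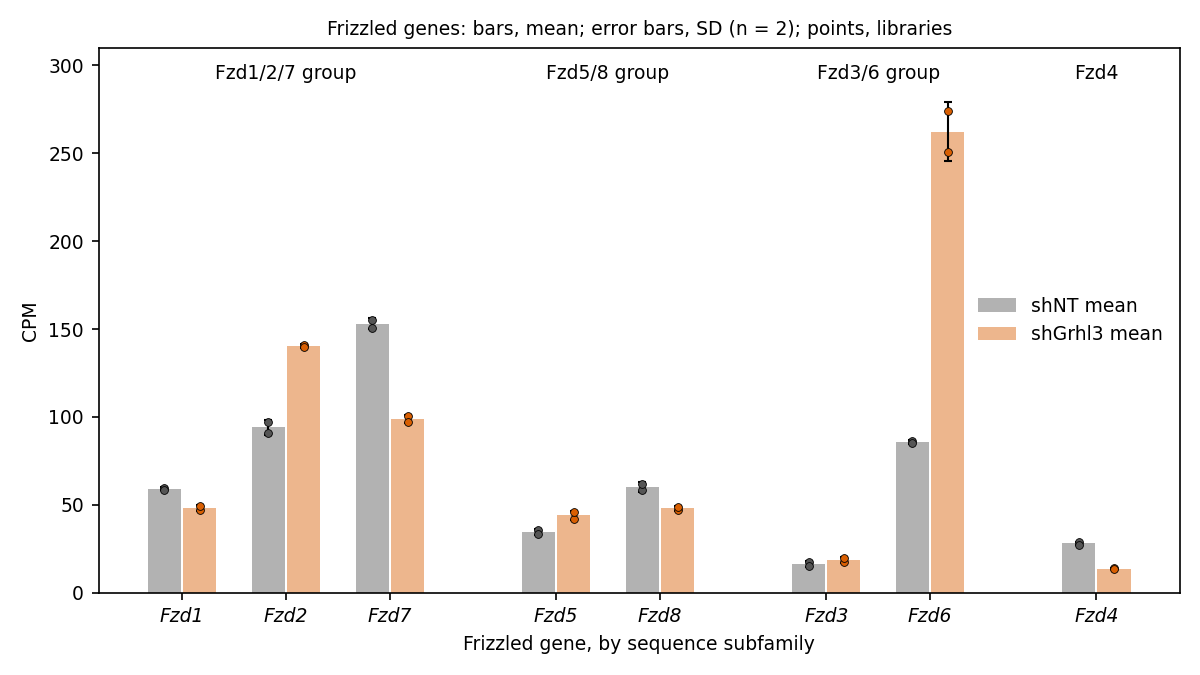
CPM of the 8 tested Frizzled genes by sequence subfamily, on a linear axis from 0, with bars for the mean, error bars for the SD (n = 2) and points for the libraries. Fzd2, Fzd5 and Fzd6 are higher in shGrhl3, Fzd1, Fzd4, Fzd7 and Fzd8 are lower, and the libraries of Fzd3 overlap.

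Of the 4 co-receptors, 1 was called higher and 3 did not pass (25% called, against 35.3% of all genes). Lrp5 and Lrp6, which pair with Frizzled receptors in beta-catenin signalling, showed no call. Lrp6 was at 120 and 108 CPM in shNT and at 103 and 125 CPM in shGrhl3, and Lrp5 at 106 and 102 CPM in shNT and at 90.4 and 120 CPM in shGrhl3. The shGrhl3 libraries lay on either side of the shNT libraries for both genes. The 95% interval of the log2 fold change ran from -0.21 to 0.20 for Lrp6 and from -0.22 to 0.25 for Lrp5. Ror2, the receptor tyrosine kinase through which Wnt5a is known to act, was at 43.8 and 48.6 CPM in shNT and at 53.7 and 59.3 CPM in shGrhl3 (log2 fold change 0.29, SE 0.10, adjusted p = 0.0332). That call was lost in 4 of 14 alternatives, with adjusted p between 0.0116 and 0.309 over all of them. Among the 4 were DESeq2 (adjusted p = 0.0720) and the fits without shNT replicate 1 or shGrhl3 replicate 2. Its relative Ror1 stood at 11.03 and 9.82 CPM in shNT and at 7.83 and 8.51 CPM in shGrhl3, with no overlap. Ror1 did not pass (log2 fold change -0.36, 95% interval -0.73 to 0.02, edgeR adjusted p = 0.130), and a fall larger than that of Fzd1 lies inside its interval.

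Of 6 tested secreted antagonists, 2 fell and 0 rose with edgeR, and 0 rose at an unadjusted p under 0.05, with DESeq2 or with limma-voom. The share called in either direction, 33.3%, was near the 35.3% of all genes. All of it was lower, where 18.1% of all genes were lower, and it rests on 6 genes. Frzb (chromosome 2, 80411970 to 80447396), a decoy that resembles the ligand-binding part of a Frizzled receptor, was at 50.4 and 60.5 CPM in shNT and at 28.2 and 28.0 CPM in shGrhl3. The shGrhl3 libraries were nearly equal and below both shNT libraries. Its log2 fold change was -0.98 (SE 0.11, 95% interval -1.21 to -0.74, adjusted p = 3.87e-07). Dkk3 (chromosome 7, 112116019 to 112159482), a Dkk relative whose part in Wnt signalling is less settled, fell from 85.1 and 94.0 CPM to 62.0 and 62.1 CPM. Here too the groups were apart (log2 fold change -0.53, SE 0.10, adjusted p = 0.000122).

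Sfrp1, Sfrp2 and Wif1, which bind Wnt proteins outside the cell, did not pass. Sfrp1 was at 12.6 and 12.3 CPM in shNT and at 12.0 and 9.15 CPM in shGrhl3 (log2 fold change -0.24, 95% interval -0.59 to 0.12). Wif1 was at 10.8 and 7.75 CPM in shNT and at 8.88 and 7.65 CPM in shGrhl3 (95% interval -0.59 to 0.23). Sfrp2 was at 2.35 and 3.84 CPM in shNT and at 2.54 and 3.10 CPM in shGrhl3 (95% interval -0.77 to 0.55). The libraries of Wif1 and of Sfrp2 overlapped, and those of Sfrp1 were separated by a margin smaller than the spread of its shGrhl3 libraries. Dkk2, an antagonist at the co-receptors, lay between 0.482 and 0.898 CPM and did not pass. Sfrp5 had 0 counts in each shNT library but 6 and 10 with shGrhl3, at least 4.82-fold higher when shNT is set to a floor of 3 counts over the group. It was too low for the test, and without the filter on low counts it passed as higher (edgeR adjusted p = 0.0357), the only untested member to do so. Sfrp4 had 3 and 7 against 9 and 8 counts, and Dkk1 and Dkk4 had 3 and 2 counts over all libraries.

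R-spondins were low. Of 3 tested, 0 rose and 0 fell with edgeR, at an unadjusted p under 0.05, with DESeq2 and with limma-voom. With 35.3% of all genes called, a count of 0 among 3 says little about them. Rspo3, the R-spondin with the highest counts, was at 2.82 and 2.204 CPM in shNT and at 2.44 and 1.18 CPM in shGrhl3, with overlapping libraries. Rspo2 had 19 and 9 counts in shNT and 7 and 5 in shGrhl3, which do not overlap, but its 95% interval ran from -2.82 to 0.12 on the log2 scale. Rspo1 had 17 and 5 against 22 and 11 counts.

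On the nuclear side, 0 of 3 genes passed in either direction with edgeR, at an unadjusted p under 0.05, with DESeq2 or with limma-voom, again too few genes to read against the 35.3% of all genes. Axin2, the gene most often read as a measure of beta-catenin activity, was at 3.61 and 4.79 CPM in shNT and at 4.59 and 4.71 CPM in shGrhl3. The shGrhl3 values lay inside the range of the shNT values (log2 fold change 0.16, SE 0.26, 95% interval -0.37 to 0.69, adjusted p = 0.665). A change of 2-fold in either direction lies outside that interval. Lef1 was counted 20 and 14 times with shNT and 23 and 31 times with shGrhl3 (log2 fold change 0.52, SE 0.47). Tcf7 was counted 12 and 12 against 5 and 13 times (95% interval -1.97 to 0.86). The Tcf7 interval includes 2-fold lower.

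**Figure D3:**
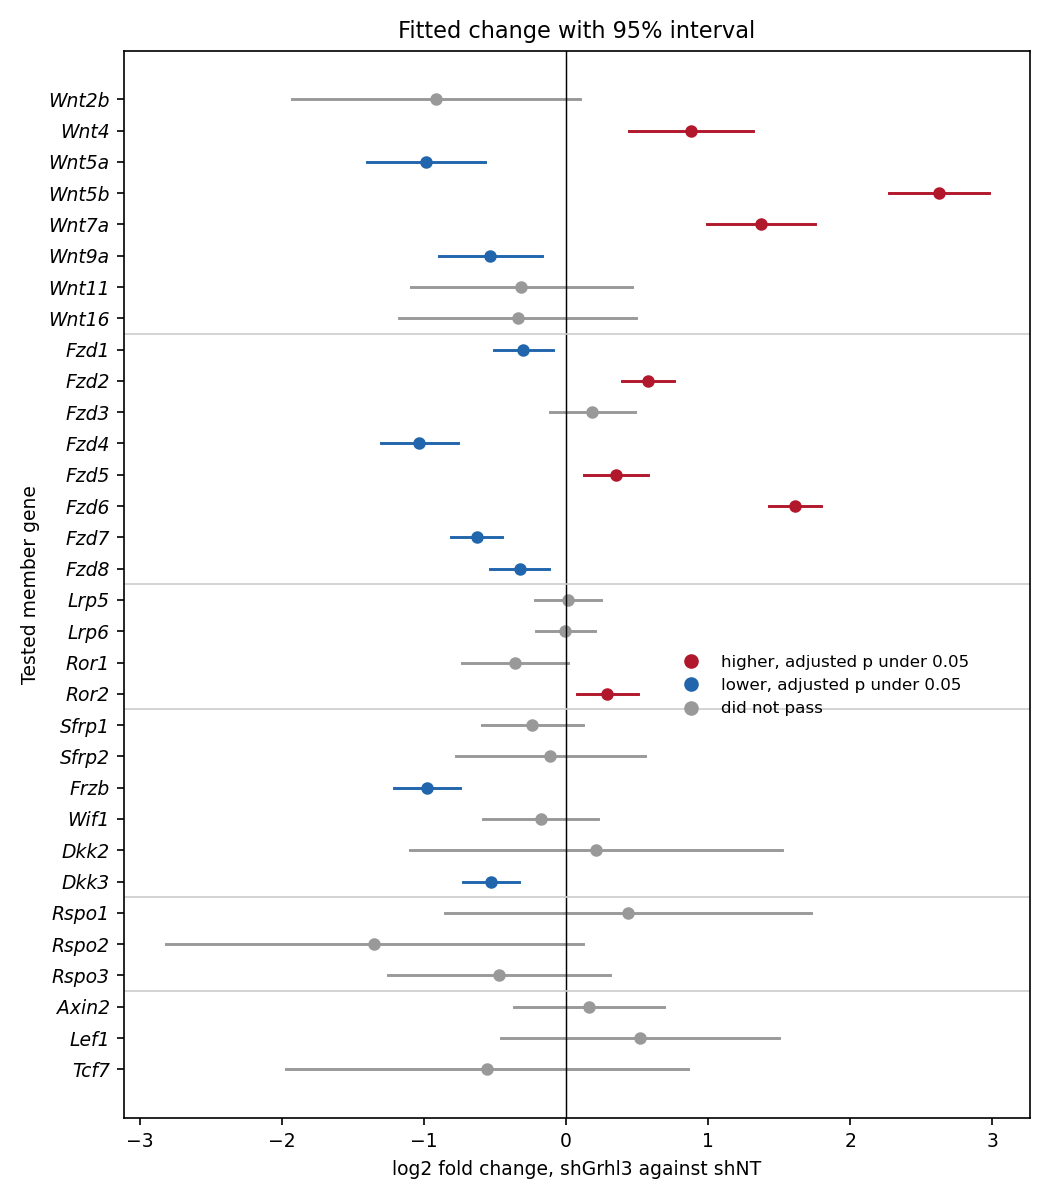
Fitted log2 fold change of shGrhl3 against shNT for the 32 tested members, as points with 95% intervals as lines, in order of role from ligands at the top to nuclear factors at the bottom. The 7 red genes are higher and the 8 blue genes lower at an adjusted p under 0.05, and the widest intervals belong to the genes with the fewest counts, such as Rspo2.

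**Figure D4:**
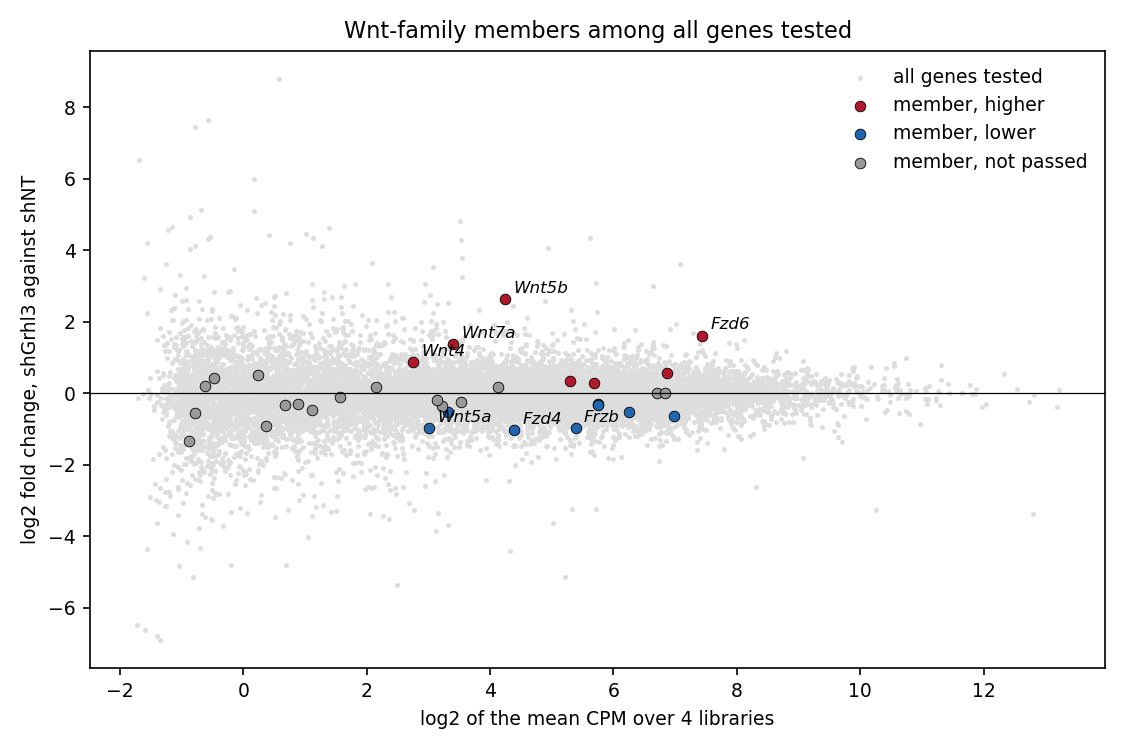
Log2 fold change of all 15324 tested genes (light grey) against the log2 of their mean CPM, with the tested members in colour. Wnt5b at 2.62 and Fzd6 at 1.61 lie above most genes of their level.

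The rest of the pathway was read through lists that hold no member. The first held 41 genes of Wnt secretion, other receptors and signal transduction, of which 38 were tested. Of these, 5 rose, 11 fell and 22 did not pass (42.1% called, against 35.3% of all genes), with a median log2 fold change of -0.10 beside -0.01 over all genes. Porcn, the enzyme that attaches the lipid to Wnt proteins, was at 3.45 and 3.72 CPM in shNT and at 7.13 and 7.65 CPM in shGrhl3 (log2 fold change 1.05, adjusted p = 0.00111). Wls, which carries the modified ligands to the cell surface and was chosen after its values were seen, went the other way, from 615 and 626 CPM to 497 and 518 CPM (log2 fold change -0.29, adjusted p = 0.00516). Trabd2b, which encodes a protease that inactivates Wnt proteins, rose from 35.8 and 28.1 CPM to 52.8 and 55.9 CPM, and Lgr4, a receptor of R-spondins, rose by 0.47 on the log2 scale. Pygo2, a partner of beta-catenin, and the kinase gene Csnk1a1 were the other genes that rose. The 5 genes with the lowest p among those that fell were Tnks, Tle4, Gsk3b, Tle2 and Csnk1e. Tnks, which encodes the tankyrase that marks Axin for destruction, fell from 345 and 331 CPM to 151 and 178 CPM. The co-repressor genes Tle4 and Tle2 had log2 fold changes of -0.99 and -1.09, and Gsk3b, a kinase of the destruction complex, had -0.60. Ctnnb1, which encodes beta-catenin itself and was chosen after its values were seen, was at 661 and 669 CPM in shNT and at 679 and 710 CPM in shGrhl3 (log2 fold change 0.06, adjusted p = 0.568). Without shNT replicate 1 the list had 3 genes higher and 6 lower, and without shNT replicate 2 it had 3 and 7.

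The second list held 24 genes of planar polarity and of signalling without beta-catenin, all tested. Of these, 1 rose, 5 fell and 18 did not pass, a share of 25.0% called against 35.3% of all genes, and the median log2 fold change was -0.05. Vangl2, a core polarity gene, fell from 5.75 and 5.54 CPM in shNT to 2.89 and 2.41 CPM in shGrhl3 (log2 fold change -1.09, adjusted p = 0.00245). Prickle1 rose from 27.5 and 25.5 CPM to 37.4 and 35.5 CPM, whereas its paralog Prickle2 fell by 0.58 on the log2 scale. The stress kinase genes Mapk9 and Mapk8 had log2 fold changes of -0.56 and -0.43, and Nfatc4, a calcium-responsive factor, had -0.95. Leaving out shGrhl3 replicate 1 gave 2 higher genes, and leaving out shGrhl3 replicate 2 gave 3.

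The third list held genes widely used as readouts of beta-catenin signalling. Its 18 names stand for 17 genes, since Wisp1 and Ccn4 name the same gene, and 10 could be tested. Of these, 1 rose, 4 fell and 5 did not pass (50% called against 35.3% of all genes, and 40.0% lower against 18.1%), with a median log2 fold change of -0.31. Ccn4 was at 723 and 723 CPM in shNT and at 446 and 442 CPM in shGrhl3, a fall of 0.70 on the log2 scale (adjusted p = 1.70e-07). The cyclin gene Ccnd1 fell from 105 and 99.7 CPM to 67.3 and 72.3 CPM, and the feedback inhibitors Nkd2 and Apcdd1 had log2 fold changes of -0.38 and -0.40. Bambi rose by 0.31, and Myc, chosen after its values were seen, had overlapping libraries (28.8 and 26.3 against 28.3 and 26.6 CPM). The other tested genes did not pass, with log2 fold changes of 0.20 for Nkd1, 0.08 for Znrf3, -0.23 for Twist1 and -0.97 for Tnfrsf19. Sp5, a direct beta-catenin target also chosen after its values were seen, had 6 and 19 counts in shNT and 0 and 1 in shGrhl3. It was too low for the test. So were Rnf43 (5 and 0 against 8 and 5 counts), Lgr5 (1 and 0 against 0 and 3) and Notum (3 and 4 against 1 and 2). Cdx2, T and Zcchc12 had 0 counts in every library. Several of these genes answer to other pathways as well, Ccnd1 among them. The list had 0 higher with DESeq2 and 0 higher and 2 lower without shNT replicate 2, and it had 0 higher without shGrhl3 replicate 1.

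**Figure D5:**
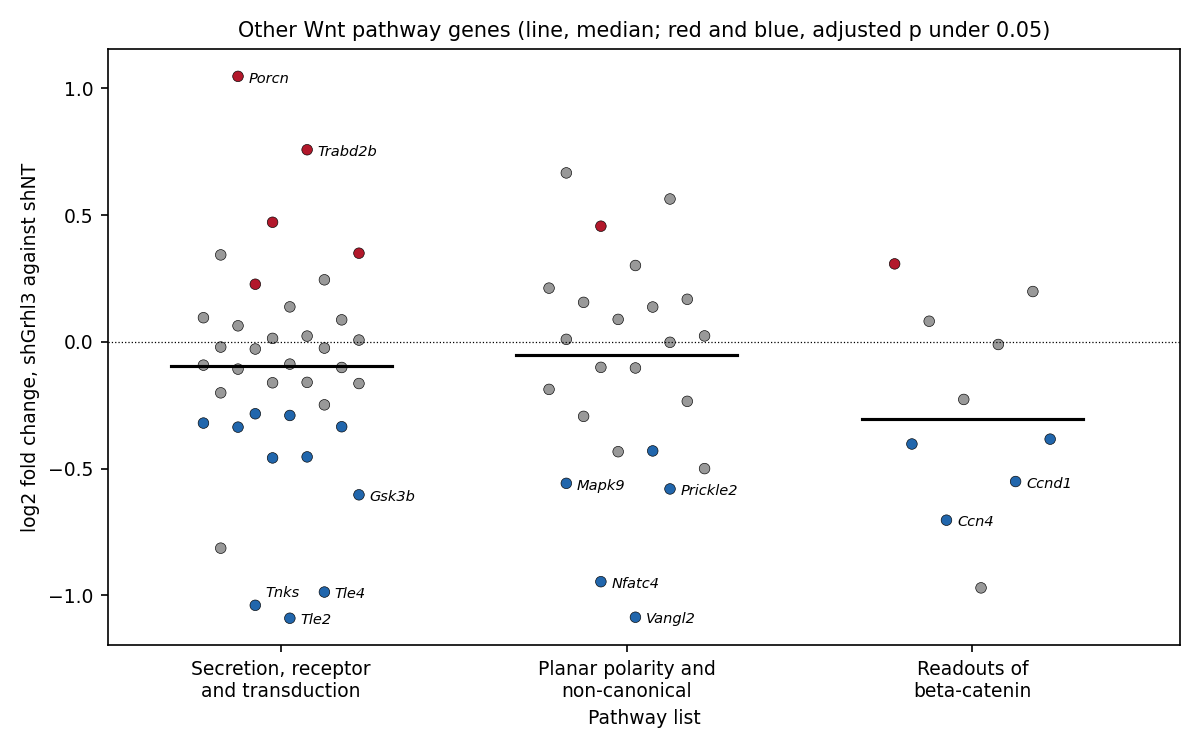
Log2 fold change of shGrhl3 against shNT for the tested genes of the 3 other pathway lists, 1 point per gene, with a black line at each median. Red and blue points passed an adjusted p of 0.05 as higher or lower, and the medians lie at -0.10, -0.05 and -0.31.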

How the data were processed

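The authors deposited gene counts of all 4 RNA-seq libraries in 1 table, as whole numbers that were not normalized. CUT&Tag data of the series were not used here. Tools named in the submitters' processing notes, with no role, are Bowtie2 2.2.6, ChIPseeker, cutadapt 1.9.1, HISAT2 2.0.1 and MACS2, and the build is mm10. Counting program, annotation, strand setting and treatment of reads that fit several genes: not given in the sources used here, so counts of paralogs and of overlapping genes are uncertain. Of 55359 rows, 1438 name no gene (0.00432% to 0.00872% of counts) and were left out. Gene positions and promoters are those of RefSeq, GRCm38.p6, the assembly behind mm10.

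Genes were filtered with filterByExpr (minimum count 10), scaled by TMM and fitted with edgeR 4.0.16 in R 4.3.3 (quasi-likelihood test, robust, no covariate, two-sided), with p-values adjusted by Benjamini-Hochberg over all 15324 genes. Fold changes are shGrhl3 against shNT. SE and 95% intervals come from the quasi-likelihood F statistic. On simulated counts with 200 changed genes, 86.0% of 2-fold and 97.0% of 4-fold changes were recovered. The changed genes were drawn only from rows above a minimum mean count, with an assumed spread. These rates therefore do not cover members with few counts. The libraries of a group differed beyond sampling noise (chi-square per degree of freedom 14.1 and 8.66). The members and lists were chosen with earlier results of these data known. The rule for naming took members past the threshold or averaging 1 or more in log2 CPM, plus up to 5 genes per list and direction by lowest p; values of lower members were added after they were seen. Alternatives covered scaling, filter, DESeq2 1.42.0, limma-voom (limma 3.58.1), summed rows, a replicate block, 1 library left out and, added after seeing the data, rRNA rows left out and marker sums without the most abundant gene.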

Additional observations from a re-analysis of the deposited data

How the results depend on the processing

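Of the 15 members that passed, 10 kept their call and direction under all 14 alternatives, and 0 changed direction. The other 5 (Wnt9a, Fzd1, Fzd5, Fzd8 and Ror2) lost the call in at least 1 alternative. With 1 library left out the lone library is assumed to vary like the other group. In those fits the count of lower members ranged from 5 to 7 and that of higher members from 5 to 7. The secretion and transduction list ranged from 3 to 6 higher and from 6 to 11 lower, the polarity list from 1 to 3 higher, and the readout list from 0 to 1 higher and from 2 to 4 lower; with DESeq2 the readout list had 0 higher. The number of all genes called ranged from 1761 to 2630 higher and from 2074 to 2560 lower.

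Only members that did not pass changed direction. Lrp5 went to -0.0027 with limma-voom. Lrp6 went to 0.00139 (DESeq2 size factors), 0.0205 (library size only), 0.00487 (upper quartile), 0.00209 (DESeq2) and 0.00607 (rRNA rows left out). With 1 library left out the log2 fold change ranged from -0.185 to 0.205 for Lrp5, from -0.133 to 0.133 for Lrp6, from -0.449 to 0.261 for Sfrp2, from -0.384 to 0.0940 for Wif1, from -0.312 to 0.596 for Dkk2, from -0.0894 to 1.41 for Rspo1, from -0.0441 to 0.367 for Axin2 and from -1.41 to 0.0222 for Tcf7. The cause was not tested.

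Same-numbered libraries did not deviate together (correlation -0.0735), so the numbers were not taken to pair the samples. With the replicate number as a block, 6 members were higher and 8 lower, the lost call being Ror2 (adjusted p = 0.0512). Depth limits the low genes: the 8 tested members under 1 on the log2 CPM scale had 95% intervals between 1.56 and 2.94 wide.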

Other observations

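The genes next to the 4 members with at least a 2-fold call were read to see whether whole neighbourhoods moved. Beside Wnt5b, Adipor2, a receptor of adiponectin, had a log2 fold change of 0.25 (edgeR adjusted p = 0.0403), and Fbxl14, which overlaps the Wnt5b span in RefSeq, had 0.02 (adjusted p = 0.925). Beside Fzd6, Baalc rose from 3.99 to 6.33 CPM (log2 fold change 0.66, adjusted p = 0.0314), and Cthrc1, a secreted gene of fibroblasts, stood at 71.7 and 77.3 CPM (log2 fold change 0.11, adjusted p = 0.421). Beside Wnt7a, the matrix gene Fbln2 had 0.23 (adjusted p = 0.0245) and Chchd4 0.25 (adjusted p = 0.188). Beside Fzd4, Tmem135, which overlaps the Fzd4 span, fell by 0.36 (adjusted p = 0.00775), and Prss23 rose by 0.31 (adjusted p = 0.00351). Adipor2, Baalc, Fbln2, Tmem135 and Prss23 passed, where 35.3% of all genes tested did. By fitted values, with no test of the difference, every neighbour changed less than the member beside it. That was likely beforehand, since the members were picked for a call of at least 2-fold, which 7.62% of all genes had. It thus does not show whether whole neighbourhoods moved.

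Among members too low for the test, named after their values were seen, 16 counts of Sfrp5 lay in the shGrhl3 libraries and 0 in shNT, and Fzd10, Fzd9 and Wnt10b had 25, 16 and 13 counts in shGrhl3 against 8, 4 and 4 in shNT. Of the 17 untested members, 6 had groups that did not overlap in CPM (35.3%). The 66.5% of all genes tested is not a like measure, since it covers only genes past the filter. Of the 17, 4 had 0 counts in every library and could not separate. The 6 without overlap were Wnt6, Wnt10a, Wnt10b, Fzd9, Fzd10 and Sfrp5. Wnt10a was lower in shGrhl3, with 3 and 4 counts in shNT against 2 and 1, and the others were higher. Each rests on a few reads.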
